A study of Mus musculus with 24 samples.

Results

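The comparison described here asked what wild-type EED, put back into Eed-deleted mouse embryonic stem cells, went with on the first day of embryoid body growth. It used 4 of the study's 24 RNA-seq libraries, chosen by their titles: 2 of knockout cells with wild-type EED added (KO+WT) and 2 of knockout cells alone (KO), both as embryoid bodies at day 1, and all 23284 gene symbols of the deposited count table. Per the labels, the cells were C57BL/6, and both lines carried a conditional Eed allele and had been treated with 800 nM 4-hydroxytamoxifen, the drug that triggers the deletion. Culture was in serum and LIF over mouse embryonic fibroblast feeders, and poly(A) RNA was sequenced. For context, values are also given for KO cells with the EED form labelled N-KR (KO+N-KR, also treated with tamoxifen) and for the untreated conditional line (f/f), and for KO+WT and KO in the state labelled 3i and at embryoid body day 2. N-KR is not spelled out in the labels, whose genotype field gives only the knockout for either rescue line, so groups were read from the titles. Each genotype is 1 line here, so the history of a line and its genotype cannot be told apart.

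EED is the subunit of Polycomb repressive complex 2 (PRC2) that binds methylated lysine 27 of histone H3 and stimulates the methyltransferase EZH2. PRC2 and PRC1 together keep many developmental genes silent in embryonic stem cells, and cells without EED lack this histone mark. In the first days of embryoid body growth, cells leave the naive pluripotent state, pass through a formative state like that of the early epiblast, and then begin to form germ layers.

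The KO+WT libraries held 13060022 and 8185907 counts and the KO libraries 13119035 and 8810180. The 2 libraries of a group differed by 1.13 times the binomial sampling variance in KO+WT and by 1.11 times in KO, whereas KO+WT and KO differed by 8.39 and 11.9 times. No label states separate cultures, and since the 2 agreed nearly to sampling noise, they were summed and counted as 1 sample. Day 1 is therefore 1 KO+WT sample of 21245929 counts against 1 KO sample of 21929215, and no test of genotype can be made within the day. A gene is called higher or lower in KO+WT by size alone, where it differed at least 2-fold and the higher sample had 5 CPM or more (CPM are read counts scaled to library size, here by TMM). The 95% intervals of log2 ratios are exact binomial and cover counting error only, since reads are not independent molecules. Where "rose" or "fell" is written, the gene passed a different test, with a Benjamini-Hochberg adjusted p under 0.05 (values ± SE). This was an edgeR quasi-likelihood fit over the 12 sums of all genotypes and states. It sets the difference between the 2 lines, averaged over 3i, day 1 and day 2, against the scatter left by the fit. A gene can pass though its ratio has the other sign in a state, as H19 did (0.14 at 3i, -1.48 at day 1).

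The cells had the markers of pluripotent cells: Pou5f1, the core pluripotency factor, stood at 1417 and 1409 CPM in the KO+WT libraries and 1194 and 1164 CPM in the KO libraries, and Sox2, its partner, at 641 and 650 CPM against 650 and 678 CPM. Of 16 markers of fibroblasts, the feeder cells, 0 were called by size. Across states 7 of 15 tested rose, 4 of them collagen genes, and 0 fell, against 7.1% and 8.73% of all genes. The summed level of the 16 was 1177 and 1205 CPM in the KO+WT libraries against 1108 and 1112 CPM in the KO libraries. Over the 12 with a mean of at least 1 CPM over the 12 sums, the median log2 ratio of KO+WT over KO was 0.27. Of these, 10 lay above 0 and 2 below, and the median was 0.47 at 3i and 0.72 at day 2. Col1a1, a fibroblast collagen, stood at 35.5 and 31.9 CPM in KO+WT and at 25.1 and 26.3 CPM in KO. The defining markers Lum, Dcn and Twist2 were each under 1 CPM in both samples. Hbb-bh1 and Hba-x, embryonic haemoglobins, had 0 counts in both samples, and the neuronal marker Dcx had 0 counts in KO+WT and 1 in KO. In bulk RNA, fewer cells of a type and less RNA per cell cannot be told apart.

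One chromosome stood apart before any gene was considered. Among 587 genes of chromosome 8 with a mean of at least 5 CPM over the 12 sums, the median log2 ratio of KO+WT over KO was -0.39 and 557 lay below 0, whereas the medians of the other 19 chromosomes ran from -0.05 to 0.06. Cut into 10 blocks of neighbouring genes, chromosome 8 had medians between -0.49 and -0.31, so no block was free of the shift. The same chromosome was lower in KO+WT than in KO at 3i (-0.37) and day 2 (-0.33). Against f/f at day 1, its median was -0.42 in KO+WT, -0.41 in KO+N-KR and -0.03 in KO.

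Of 591 chromosome 8 genes that reached 5 CPM in the higher day 1 sample, 20 were called lower in KO+WT and 1 higher, and 4 of the 20 would still be called relative to the chromosome's own median. Copy number was not measured in these data. Genes on chromosome 8 are marked as such below, and without them the day 1 calls numbered 69 higher and 89 lower, against 70 and 109 with them.

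**Figure D1:**
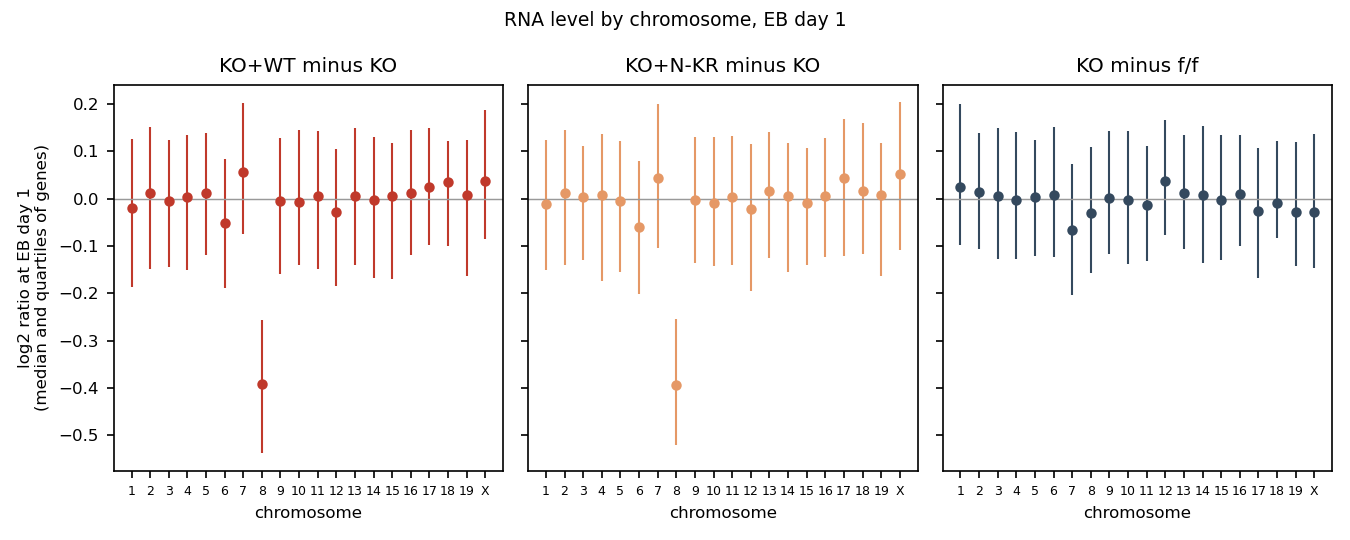
Median log2 ratio at embryoid body day 1 (points) with the quartiles over genes (lines), for each chromosome, in KO+WT against KO, KO+N-KR against KO and KO against f/f. Chromosome 8 sits at -0.39 in both rescue lines and at -0.03 in KO against f/f.

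Of 10650 genes that reached 5 CPM in the higher day 1 sample, 70 were higher in KO+WT (0.657%) and 109 were lower (1.02%), 1.68% in all. Only 8 of the higher and 12 of the lower genes differed 4-fold or more. The higher genes were led by Insm1, Dll1 and Enpp2, and with them stood regulators of the formative epiblast. The lower genes were led by a cluster of Xlr genes on the X chromosome, and also included the endothelial receptor gene Robo4, the Polycomb group gene Sfmbt2, the Nodal antagonist Lefty2 and the mesendoderm factor Eomes. Called in each pair of same-numbered libraries alone were 48 of the 70 and 72 of the 109. The genes nearest the 2-fold line were Raet1a (log2 ratio 1.004) and 4933416M07Rik (-1.002) inside it, and Frmd5 (0.997) and E430025E21Rik (-0.997) outside.

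**Figure D2:**
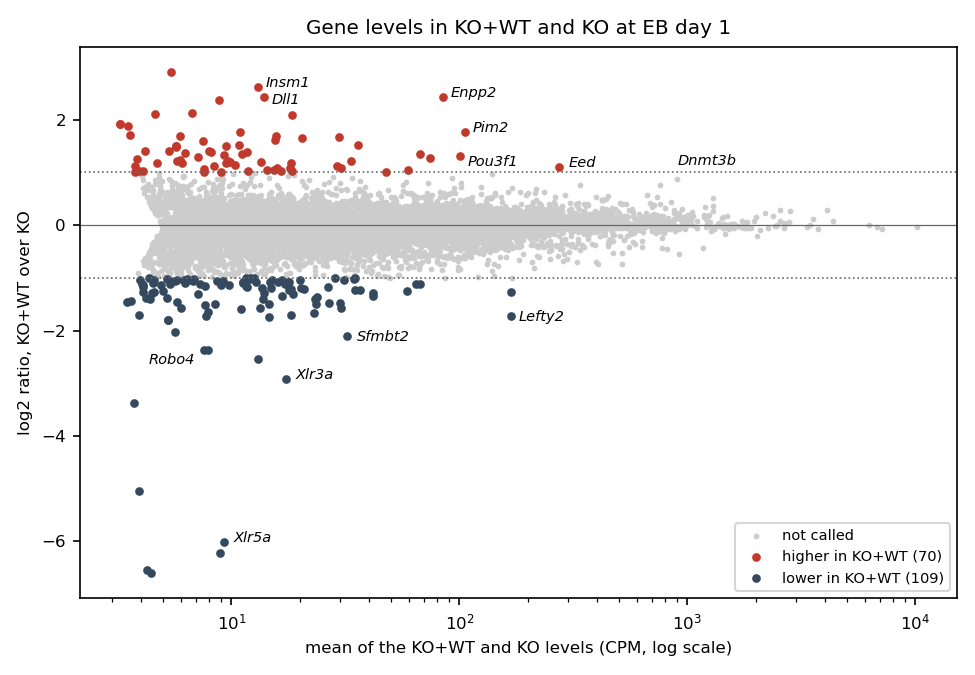
Each point is a gene that reached 5 CPM in the higher sample. The x axis is the mean of the KO+WT and KO levels in CPM (log scale) and the y axis the log2 ratio of KO+WT over KO at day 1, with dotted lines at 2-fold. The 70 genes higher in KO+WT and the 109 lower ones lie outside the lines, and the points lowest on the plot belong to the X chromosome cluster.

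The same lines were sampled at 3i and day 2 in libraries that day 1 does not share. Of the 70 genes higher in KO+WT at day 1, 64 had a positive log2 ratio at 3i (median 0.69) and 63 at day 2 (median 0.80), and 12 and 22 were called higher there. Only 40 of the 70 reached 5 CPM at 3i and 62 at day 2, and the others could not be called there. Insm1, for one, had 0.592 CPM in KO+WT against 0.210 CPM in KO at 3i. Of the 109 lower genes, 95 had a negative ratio at 3i (median -0.47) and 106 at day 2 (median -1.11), with 16 and 54 called lower. Of the 109, 95 reached 5 CPM at 3i and 97 at day 2. Over the same 10650 genes the medians were 0.0005 at 3i and 0.03 at day 2, with 28 called higher and 27 lower at 3i and 54 higher and 155 lower at day 2. Over the genes that reached 5 CPM in the state itself, 0.431% of 10913 were called higher and 0.312% lower at 3i (0.742% either way), and 0.715% of 11052 higher and 1.9% lower at day 2 (2.61% either way). None of the 179 called genes was called in the opposite direction in another state.

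In the fit over the 12 sums, 1081 of 15220 genes rose (7.1%) and 1329 fell (8.73%), 57 of the 70 and 91 of the 109 day 1 genes among them. That fit includes day 1, and without it only 74 genes rose and 151 fell. Without day 2 the counts were 554 and 709, and without 3i they were 1185 and 1667. Whether day 1 departed from the other states was asked with an interaction term: of 15220 genes, 0 passed in edgeR and 0 in DESeq2, and 309 had an unadjusted p under 0.05 in edgeR. A fit over the 24 libraries, whose p-values set the 2 RNA samples against the noise of repeated libraries and not the genotypes, called 2402 of 14619 genes higher in KO+WT (16.4%) and 2625 lower (18%). In that fit 511 of 766 chromosome 8 genes were lower (66.7%), against 15.3% of genes elsewhere.

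Eed itself had 369 and 377 CPM in the KO+WT libraries and 172 and 175 CPM in the KO libraries. The log2 ratio was 1.1 (1.04 to 1.16), and Eed rose across states (1.17 ± 0.10, adjusted p = 1.75e-05). At day 1 it stood at 181 CPM in KO+N-KR and 219 CPM in f/f. The labels say neither which exons were deleted nor whether reads from the added EED would be counted, so these levels check neither. Skp1a, for a subunit of SCF ubiquitin ligases that the series title names, had 381 and 396 CPM in KO+WT and 359 and 365 CPM in KO (log2 ratio 0.10, 0.05 to 0.14), and it did not pass across states (0.14 ± 0.05, adjusted p = 0.0758). Of the 12 SCF genes, 0 were called (median 0.04).

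Of the 11 PRC2 subunit genes at 5 CPM, Eed alone was called. Rbbp4, for a histone-binding subunit, rose across states (0.27 ± 0.05, adjusted p = 0.00344) with 610 and 618 CPM in KO+WT against 497 and 503 CPM in KO, and so did Mtf2, for an accessory subunit (0.26 ± 0.06, adjusted p = 0.0131). Phf19, for another accessory subunit, fell (-0.84 ± 0.23, adjusted p = 0.0243), with 15.2 and 15.9 CPM in KO+WT against 23.0 and 23.7 CPM in KO. Ezh2, the methyltransferase gene, was near equal with 237 CPM in KO+WT against 223 CPM in KO.

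Among 19 PRC1 genes at 5 CPM, 1 was called, Bmi1, for a RING finger partner subunit, at 8.14 and 8.58 CPM in KO+WT and 17.6 and 21.0 CPM in KO. Across states 5 of 21 PRC1 genes rose, such as Kdm2b, for a CpG-binding subunit (0.46 ± 0.09, adjusted p = 0.00398), and 5 fell, such as Yaf2 (-0.60 ± 0.12, adjusted p = 0.00612). The list median at day 1 was -0.04 (0.02 without replicate 1 and 0.05 without replicate 2), against -0.007 over all 13297 genes with a mean of at least 1 CPM over the 12 sums. Medians of the lists below are over members that met the same minimum. Their counts are to be read against 0.657% of all genes higher and 1.02% lower at day 1. Across states the shares of all genes are 7.1% risen and 8.73% fallen. The lists were drawn up with earlier results of these data known, so these shares describe them and are not tests.

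The lowest ratios belonged to neighbouring genes on the X chromosome. In the RefSeq order, 13 genes run from Xlr4a to Xlr5c, 12 of them are in the table, and 11 of these (all but F8a) are Xlr genes or lie among them; 9 of the 11 were called lower. Xlr genes are X-linked, lymphocyte-regulated genes of a family related to meiotic chromosome proteins. The promoter windows of the 3 Xlr3 genes and of Xlr5a and Xlr5b are shown because these near-identical copies moved together. The authors' counting could split their reads, so single members are uncertain and the sum is the firmer value. Xlr5c, also called lower, is not shown. Each window runs from 250 bases before to 50 after the RefSeq start (GRCm38.p6, gene strand). Capitals mark the longest run shared by the copies shown, 58 bases in the 3 Xlr3 genes and 255 in Xlr5a and Xlr5b.
Xlr3a (chrX:73097046-73097345, minus strand): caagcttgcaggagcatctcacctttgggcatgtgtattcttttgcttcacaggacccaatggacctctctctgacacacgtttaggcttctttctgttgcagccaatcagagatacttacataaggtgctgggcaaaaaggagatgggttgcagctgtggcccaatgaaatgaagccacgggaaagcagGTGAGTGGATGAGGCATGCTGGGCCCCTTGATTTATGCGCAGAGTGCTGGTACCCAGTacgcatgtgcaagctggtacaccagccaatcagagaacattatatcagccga
Xlr3b (chrX:73191929-73192228, plus strand): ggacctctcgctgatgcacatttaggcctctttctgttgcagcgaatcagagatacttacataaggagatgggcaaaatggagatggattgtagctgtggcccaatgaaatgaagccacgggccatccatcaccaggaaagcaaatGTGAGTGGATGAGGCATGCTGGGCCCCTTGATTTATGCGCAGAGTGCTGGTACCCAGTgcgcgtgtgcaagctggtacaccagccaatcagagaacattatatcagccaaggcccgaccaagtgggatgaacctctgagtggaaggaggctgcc
Xlr3c (chrX:73265341-73265640, minus strand): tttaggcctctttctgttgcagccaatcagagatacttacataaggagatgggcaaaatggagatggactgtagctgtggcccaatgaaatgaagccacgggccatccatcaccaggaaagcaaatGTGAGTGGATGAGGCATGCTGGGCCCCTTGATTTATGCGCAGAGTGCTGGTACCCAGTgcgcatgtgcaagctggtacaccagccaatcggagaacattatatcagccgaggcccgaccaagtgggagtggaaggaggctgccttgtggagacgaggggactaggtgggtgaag
Xlr5a (chrX:73117653-73117952, minus strand): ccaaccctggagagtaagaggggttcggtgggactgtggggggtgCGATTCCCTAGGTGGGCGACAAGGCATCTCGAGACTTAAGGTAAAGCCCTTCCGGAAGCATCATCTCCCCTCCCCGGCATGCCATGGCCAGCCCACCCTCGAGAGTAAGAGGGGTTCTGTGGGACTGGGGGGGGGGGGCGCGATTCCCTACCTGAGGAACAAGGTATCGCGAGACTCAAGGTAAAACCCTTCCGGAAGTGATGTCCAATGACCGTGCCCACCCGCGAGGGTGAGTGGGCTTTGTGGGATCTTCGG
Xlr5b (chrX:73148591-73148890, plus strand): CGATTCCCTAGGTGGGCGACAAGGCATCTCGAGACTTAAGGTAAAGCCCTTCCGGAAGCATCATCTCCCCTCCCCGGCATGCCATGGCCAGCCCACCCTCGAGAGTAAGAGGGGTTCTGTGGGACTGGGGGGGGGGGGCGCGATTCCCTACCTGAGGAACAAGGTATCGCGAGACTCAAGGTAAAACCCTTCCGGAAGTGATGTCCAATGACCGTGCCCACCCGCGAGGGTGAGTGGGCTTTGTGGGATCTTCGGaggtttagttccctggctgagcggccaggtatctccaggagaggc

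Summed over the 11 genes, the cluster had 12.2 CPM in KO+WT at day 1 against 142 CPM in KO, with 7.91 CPM in KO+N-KR and 164 CPM in f/f. Both rescue lines were thus low, and KO and f/f were high. At 3i the sums were 7.85 CPM in KO+WT against 170 CPM in KO, with 6.15 CPM in KO+N-KR and 183 CPM in f/f. At day 2 they were 8.83 CPM in KO+WT against 155 CPM in KO, with 5.20 CPM in KO+N-KR and 163 CPM in f/f.

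Xlr3a had 4.03 and 3.91 CPM in the KO+WT libraries and 31.2 and 30.2 CPM in the KO libraries (log2 ratio -2.92, -3.30 to -2.62). Xlr5a had 0.316 and 0 CPM in KO+WT and 19.1 and 17.1 CPM in KO, and Xlr5b 0.237 and 0 CPM against 17.5 and 17.8 CPM. The libraries of the lines did not overlap in any of the 3, which is not particular to these genes. How often this holds over all genes was not counted, but the fit over the 24 libraries called 16.4% of 14619 genes higher and 18% lower. For Xlr5a and Xlr5b the naming rule all but fixes the lack of overlap. DXBay18 had 0 counts in KO+WT and 190 in KO, which is at least 60.8-fold lower at a floor of 3 counts over the sum, and Gm14685 had 0 and 182 counts, at least 58.3-fold lower. Xlr5a and Xlr5b fell across states by 6.37 ± 0.26 (adjusted p = 1.33e-08) and 6.36 ± 0.24 (adjusted p = 9.99e-09) on the log2 scale.

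The measured genes around the cluster differed far less. F8a, a single gene inside it, had 2.43 CPM in KO+WT against 3.46 CPM in KO (log2 ratio -0.49, -1.06 to 0.03). Of the nearest measured neighbours, Pnma5 on one side had 26.9 CPM in KO+WT against 27.9 CPM in KO (log2 ratio -0.05, -0.22 to 0.12), and Zfp275 on the other 27.5 CPM against 29.7 CPM (-0.11, -0.27 to 0.06). Pnma3, next to Xlr4a, was under 5 CPM in both samples and could not be called, and 4 genes between Xlr5c and Zfp275 were not analysed here. Farther out, Bgn, for the matrix proteoglycan biglycan, had 14.0 CPM in KO+WT against 9.85 CPM in KO and rose across states (0.49 ± 0.14, adjusted p = 0.0355). Without the 11 genes, the lower calls numbered 100.

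**Figure D3:**
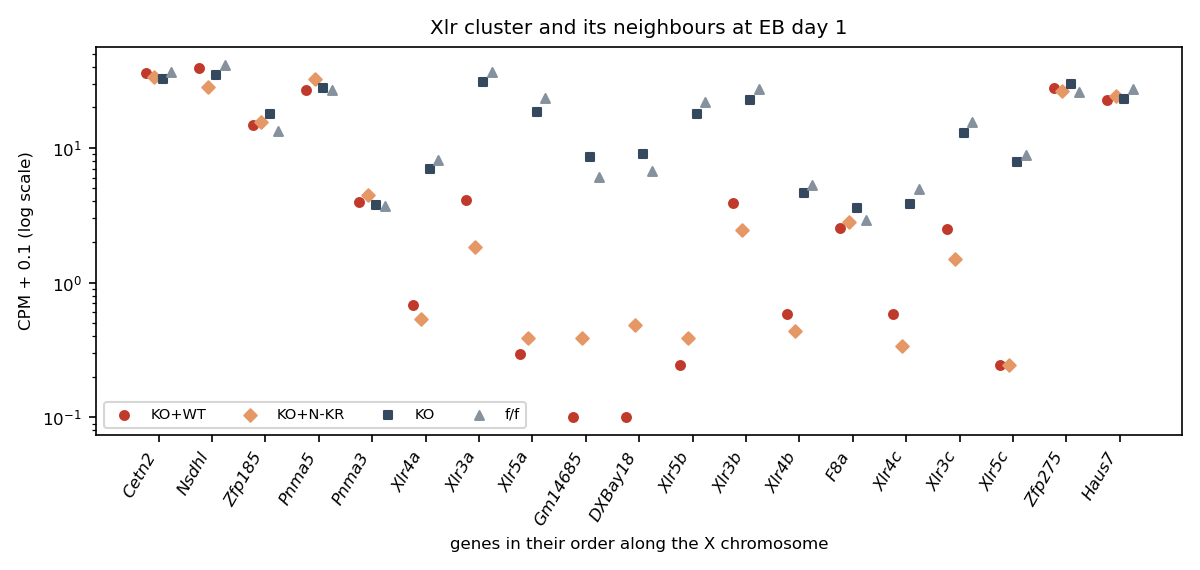
Levels at embryoid body day 1 (CPM + 0.1, log scale) of the genes around the Xlr cluster in their order along the X chromosome, in KO+WT, KO+N-KR, KO and f/f (1 sum of 2 libraries each). Summed over the cluster without F8a, KO+WT had 12.2 CPM, KO+N-KR 7.91, KO 142 and f/f 164 CPM, and none of the genes drawn on either side of it was called by size.

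Outside the cluster, Sfmbt2 had the second lowest ratio of the genes named by size. Sfmbt2 encodes a Polycomb group protein and is expressed from the paternal allele in the extra-embryonic lineages, where its silent allele carries methylated lysine 27 of histone H3. It stood at 12.5 and 11.6 CPM in the KO+WT libraries and 51.8 and 53 CPM in the KO libraries, with 14.4 CPM in KO+N-KR and 15.7 CPM in f/f. Its log2 ratio was -2.10 (-2.31 to -1.91), and it fell across states (-1.97 ± 0.30, adjusted p = 0.000894). Of the 9 genes listed as imprinted by that mark, Sfmbt2 alone was called, with a list median of -0.23. Across states 4 of 9 fell, Sfmbt2, Bbx (-0.51 ± 0.10, adjusted p = 0.0042), Slc38a4 (-0.35 ± 0.11, adjusted p = 0.0466), an amino acid transporter gene, and Gab1 (-0.51 ± 0.06, adjusted p = 0.000253), which lies on chromosome 8.

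The promoter windows of Sfmbt2 and Dll1 are shown because these genes had among the largest differences in each direction outside the cluster, and because CG dinucleotides (capitals; the same on both strands) are what PRC2-bound promoters are known to be rich in. RefSeq gives 2 starts for each. Of all 32851 windows of this length in the table, 45.8% and 33.0% hold at least as many CGs as the Sfmbt2 windows, 9 and 16, and 20.0% and 34.6% at least as many as the Dll1 windows, 24 and 15.
Sfmbt2 (chr2:10370201-10370500, plus strand): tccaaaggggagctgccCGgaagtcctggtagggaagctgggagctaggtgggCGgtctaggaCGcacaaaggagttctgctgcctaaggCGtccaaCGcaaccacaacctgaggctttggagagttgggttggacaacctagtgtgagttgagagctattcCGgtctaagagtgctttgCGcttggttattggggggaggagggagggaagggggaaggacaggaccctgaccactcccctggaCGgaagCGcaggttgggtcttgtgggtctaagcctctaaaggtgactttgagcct
Sfmbt2 (chr2:10372186-10372485, plus strand): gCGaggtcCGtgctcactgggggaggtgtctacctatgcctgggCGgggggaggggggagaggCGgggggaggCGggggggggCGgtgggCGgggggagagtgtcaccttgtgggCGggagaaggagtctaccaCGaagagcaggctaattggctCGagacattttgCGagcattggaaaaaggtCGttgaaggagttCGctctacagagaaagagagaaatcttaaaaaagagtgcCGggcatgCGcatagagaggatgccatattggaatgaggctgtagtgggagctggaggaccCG
Dll1 (chr17:15375774-15376073, minus strand): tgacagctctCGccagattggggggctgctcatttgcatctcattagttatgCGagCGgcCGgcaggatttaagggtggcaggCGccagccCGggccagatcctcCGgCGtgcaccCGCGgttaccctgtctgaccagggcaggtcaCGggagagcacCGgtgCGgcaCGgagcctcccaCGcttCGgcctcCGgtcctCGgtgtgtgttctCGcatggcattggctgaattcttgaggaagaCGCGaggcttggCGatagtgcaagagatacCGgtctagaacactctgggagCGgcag
Dll1 (chr17:15376883-15377182, minus strand): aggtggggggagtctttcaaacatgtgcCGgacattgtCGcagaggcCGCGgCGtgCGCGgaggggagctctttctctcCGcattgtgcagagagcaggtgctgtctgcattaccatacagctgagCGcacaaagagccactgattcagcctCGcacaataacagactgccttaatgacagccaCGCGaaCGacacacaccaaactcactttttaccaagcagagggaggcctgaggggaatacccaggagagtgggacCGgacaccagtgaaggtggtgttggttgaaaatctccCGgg

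Dll1, a ligand of Notch receptors, had 21.4 and 26.6 CPM in the KO+WT libraries and 4.61 and 3.72 CPM in the KO libraries. The log2 ratio was 2.44 (2.14 to 2.80) and Dll1 rose across states (1.73 ± 0.30, adjusted p = 0.0021), with 17.0 CPM in KO+N-KR and 15.6 CPM in f/f at day 1. Insm1, a zinc finger repressor of neuroendocrine and neural progenitor cells, was the highest of the genes named by size, at 23.3 and 21.2 CPM in KO+WT and 3.82 and 3.25 CPM in KO (log2 ratio 2.62, 2.30 to 3.01), with 18.8 CPM in KO+N-KR and 8.57 CPM in f/f. It rose across states too (2.19 ± 0.18, adjusted p = 1.26e-05).

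Of the 12 genes of the Notch list at 5 CPM, Dll1 and Insm1 were called higher and the receptor gene Notch4 lower, at 11.9 and 9.34 CPM in KO+WT against 26.9 and 23.5 CPM in KO. The list median was -0.01 (0.18 without replicate 1). Hes6, a helix-loop-helix factor that opposes Hes1, rose across states (0.75 ± 0.17, adjusted p = 0.011), as did the ligand gene Jag1 (0.48 ± 0.11, adjusted p = 0.0136). Hes1, a direct Notch target, had 14.0 and 14.1 CPM in KO+WT and 23.6 and 23.2 CPM in KO, and it did not pass across states (adjusted p = 0.807).

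Enpp2, for autotaxin, the enzyme that makes lysophosphatidic acid, differed by nearly as much. Its levels were 144 and 141 CPM in KO+WT and 25.3 and 28.6 CPM in KO (log2 ratio 2.42, 2.30 to 2.56), with 107 CPM in KO+N-KR and 59.8 CPM in f/f, and it rose across states (2.21 ± 0.17, adjusted p = 1.06e-05). Ccno, for a cyclin of multiciliated cells, had 14.7 and 15.3 CPM in KO+WT and 2.97 and 2.56 CPM in KO. Gadd45g, a stress and differentiation gene, had 29.5 and 30.8 CPM against 7.73 and 5.81 CPM.

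Cxcl12, a chemokine gene, had 11.9 and 9.46 CPM in KO+WT and 2.34 and 2.56 CPM in KO, but its log2 ratio at 3i was 0.29. Wt1, a zinc finger factor of kidney and mesothelium and a textbook Polycomb target, had 45.1 and 45.5 CPM in KO+WT and 13.4 and 15.5 CPM in KO. Foxi3, a forkhead factor, Pla2g1b, a secreted phospholipase, the semaphorin Sema6a and Vrtn, a gene known for vertebra number, had log2 ratios from 1.52 to 1.76. Ccno, Gadd45g, Cxcl12, Wt1, Foxi3, Pla2g1b, Sema6a and Vrtn each rose across states, with adjusted p from 2.29e-05 to 0.00355. Fibroblasts too express some of these genes, Cxcl12 among them, and what part the fibroblast markers described above had in their levels was not tested.

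**Figure D4:**
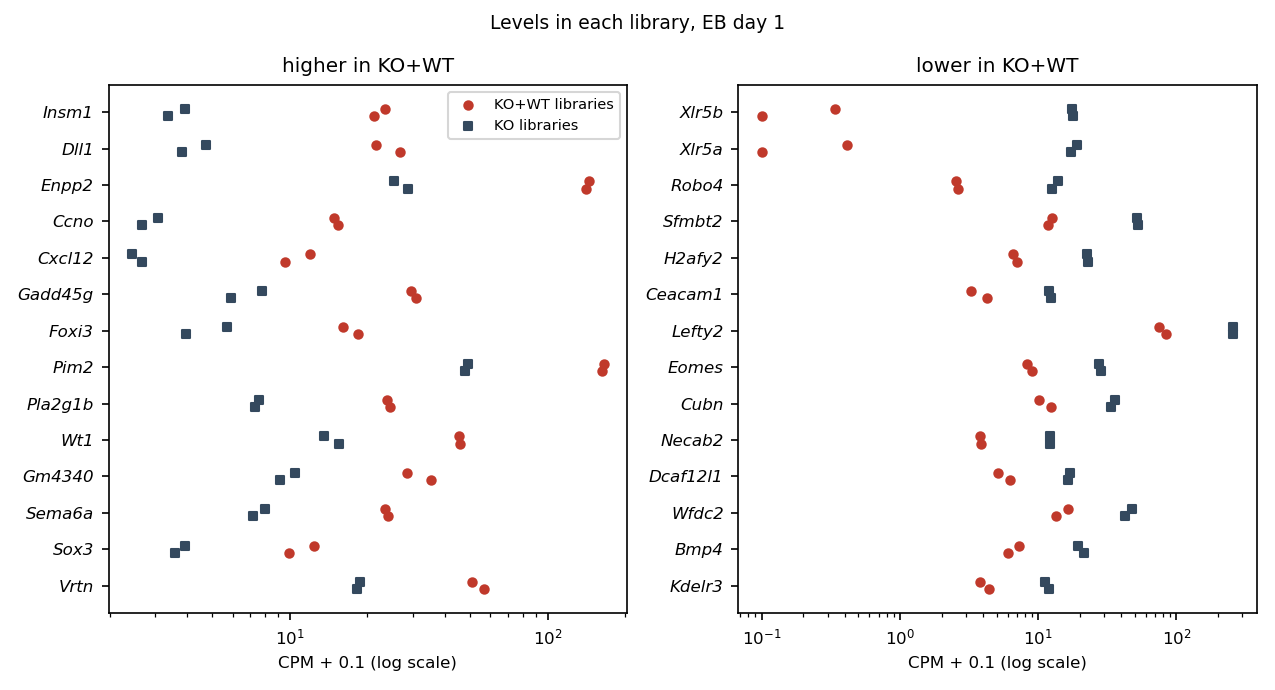
Levels in each library at embryoid body day 1 (CPM + 0.1, log scale) of the 14 genes with the highest and the 14 with the lowest log2 ratios of KO+WT over KO, taken by the naming rule, with the KO+WT libraries as circles and the KO libraries as squares. The libraries of the lines do not overlap in the 28 genes, which the naming rule, a 2-fold difference in each same-numbered pair, all but fixes.

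Genes of the formative epiblast stood higher in KO+WT. Of 14 at 5 CPM, 4 were called higher and 0 lower, against 0.657% higher over all genes. The median of 15 was 0.57, and 9 of 15 rose across states with 0 falling. The list was chosen with earlier results of these data known, so this is no independent test. Pim2 and Sox3 among the calls were also among the 14 highest genes named by size. Pim2, a serine kinase gene, had 165 and 163 CPM in KO+WT and 48.9 and 47.7 CPM in KO, with 133 CPM in KO+N-KR and 82.6 CPM in f/f (log2 ratio 1.76, 1.66 to 1.86). Pou3f1, a POU factor of the epiblast and later of neural cells, had 147 and 139 CPM against 58.0 and 57.0 CPM, with 117 CPM in KO+N-KR and 88.7 CPM in f/f. Lef1, a WNT effector, had 47.4 and 45.7 CPM against 19.4 and 20.8 CPM, and Sox3, an X-linked SOX factor, 12.3 and 9.84 CPM against 3.82 and 3.49 CPM.

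Further members rose across states while short of the 2-fold line at day 1. Dnmt3b, a de novo DNA methyltransferase gene, had 1167 and 1183 CPM in KO+WT and 636 and 639 CPM in KO, and it rose across states (0.86 ± 0.22, adjusted p = 0.0209). Fgf5, a growth factor gene and classical marker of this stage, also rose (0.95 ± 0.19, adjusted p = 0.00593), as did the transcription factor genes Foxd3 (0.88 ± 0.23, adjusted p = 0.0218) and Zic2 (0.60 ± 0.16, adjusted p = 0.0211). Otx2 had 94.3 and 94.9 CPM in KO+WT and 85.7 and 88.6 CPM in KO, so not every regulator of the stage differed by much. The list median was 0.26 at 3i and 0.92 at day 2.

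Naive pluripotency genes leaned the other way by less. Of 15, 1 was called lower, against 1.02% of all genes, and the median was -0.33. Prdm14, a repressor of epiblast differentiation, had 11.6 and 9.08 CPM in KO+WT and 26.2 and 23.4 CPM in KO, with 9.88 CPM in KO+N-KR and 13.8 CPM in f/f. Its log2 ratio was -1.23 at day 1, 0.16 at 3i and -1.46 at day 2. Tcl1, an AKT co-activator gene, had 17.8 and 20.9 CPM in KO+WT and 37.1 and 38.4 CPM in KO, and Nr5a2, a nuclear receptor gene, 27 and 27.6 CPM against 48.9 and 52.3 CPM.

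Across states 4 of 15 naive genes fell, Prdm14, Tcl1, Nr5a2 and, on chromosome 8, Zfp42, and Fgf4 rose (0.48 ± 0.08, adjusted p = 0.00151). The list median was 0.16 at 3i and -0.62 at day 2, the sign thus differing between the states. Of 10 core pluripotency genes, 0 were called, the median was 0.15, and 4 rose across states, Pou5f1 (0.24 ± 0.05, adjusted p = 0.00623), Lin28a, Trim28 and Tdgf1.

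Genes of the 2-cell-like state, a rare and transient state of cultured stem cells, were higher at day 1. Of 4 at 5 CPM, each was called higher, against 0.657% of all genes, with a median of 1.41. Gm4340 had 28.5 and 35.2 CPM in KO+WT and 10.4 and 9.07 CPM in KO, with 8.15 CPM in KO+N-KR and 22.2 CPM in f/f. Zscan4c, of a zinc finger family active at telomeres, had 12.3 and 15.5 CPM against 5.39 and 6.39 CPM, and Zscan4f 13.6 and 13.0 CPM against 4.84 and 5.81 CPM. Zscan4 copies are near-identical, so single members are uncertain. The median was 0.82 at 3i and -0.34 at day 2, and Gm4340 and the 3 Zscan4 genes did not pass across states (adjusted p from 0.0716 to 0.404). Of 6 list members tested, 1 rose, Tcstv3 (1.33 ± 0.41, adjusted p = 0.0447), which had 22 counts in KO+WT and 6 in KO at day 1.

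Genes of the primitive streak and of Nodal signalling included a pair of the lower calls. Lefty2, a secreted antagonist of Nodal, had 75 and 84.1 CPM in KO+WT and 258 and 258 CPM in KO, with 62.8 CPM in KO+N-KR and 90.9 CPM in f/f (log2 ratio -1.71, -1.80 to -1.64). It fell across states (-1.49 ± 0.16, adjusted p = 9.1e-05). Eomes, a T-box factor of mesendoderm and trophoblast, had 8.22 and 8.96 CPM in KO+WT and 27.6 and 28.1 CPM in KO, and it fell as well (-1.13 ± 0.18, adjusted p = 0.00153).

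Nodal, the ligand, had 90.0 and 86.3 CPM in KO+WT and 86.2 and 82.3 CPM in KO, and Lefty1, the neighbouring antagonist gene, 81.4 and 82.6 CPM against 84.3 and 87.9 CPM. At day 1 the interval of the Lefty1 log2 ratio was -0.16 to 0.03. At 3i, however, Lefty1 was called lower, with 38.3 CPM in KO+WT against 114 CPM in KO (log2 ratio -1.57, and -1.56 for Lefty2). The other streak genes were scarce, with T, for Brachyury, at 3 counts in KO+WT and 4 in KO. In all, 4 of 14 streak genes had 5 CPM.

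The BMP list held calls in both directions. Bmp4, a ligand of early mesoderm and germ cell induction, had 7.20 and 5.93 CPM in KO+WT and 19.2 and 21.3 CPM in KO, and Id1, a direct BMP target, 14.6 and 13.2 CPM against 40.3 and 38.7 CPM. Both fell across states, Bmp4 by 1.04 ± 0.23 (adjusted p = 0.00901) and Id1 by 1.60 ± 0.16 (adjusted p = 7.26e-05) on the log2 scale. Grem1, a secreted BMP antagonist gene, was called higher at 5.54 and 4.92 CPM in KO+WT against 2.73 and 2.32 CPM in KO and did not pass across states (adjusted p = 0.07). Of 10 genes of this list at 5 CPM, 1 was called higher and 2 lower (median -0.32).

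Of 5 mesoderm genes at 5 CPM, 3 were called lower (1.02% over all genes), Bmp4 and the homeobox genes Meis1 and Meis2. Across states 4 of 12 fell with 0 rising (8.73% and 7.1% over all genes). Meis2 had 4.43 and 4.29 CPM in KO+WT and 12.6 and 12.4 CPM in KO, and Meis1 2.85 and 3.28 CPM against 9.13 and 7.56 CPM. At 3i their log2 ratios were 0.03 and 0.45, and at day 2 -1.99 and -1.92. The list median was -0.86.

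The primitive endoderm list had 8 of 18 genes at 5 CPM, of which 2 were called lower, against 1.02% of all genes. Cubn, an endocytic receptor gene of visceral endoderm, had 10.0 and 12.4 CPM in KO+WT and 36.0 and 33.5 CPM in KO, with 58.9 CPM in KO+N-KR and 22.4 CPM in f/f. Dab2, for the adaptor of that receptor, had 4.27 and 4.04 CPM against 9.13 and 8.02 CPM, with 15.6 CPM in KO+N-KR and 5.36 CPM in f/f. KO+N-KR thus lay above KO for these genes while KO+WT lay below it.

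Across states 8 of 18 primitive endoderm genes fell and 0 rose, against 8.73% and 7.1% of all genes, Cubn (-1.39 ± 0.16, adjusted p = 0.000186) and Dab2 (-0.70 ± 0.17, adjusted p = 0.0147) among them, and also Gata4 and Gata6, the lineage factors, which were under 5 CPM at day 1. Col4a1 and Col4a2, basement membrane collagens that fell too, lie on chromosome 8. The list median was -0.73, with 13 of 16 members below 0 and 3 above, and it was -0.13 at 3i and -0.74 at day 2. Lamc1, a laminin gene, was above 0, at 541 and 535 CPM in KO+WT against 448 and 444 CPM in KO. Summed over the 18 genes, the list had 1245 CPM in KO+WT against 1182 CPM in KO. Of 5 parietal endoderm genes at 5 CPM, 1 was called, Fst, for the activin antagonist follistatin, which was higher at 12.0 and 11.5 CPM in KO+WT against 4.53 and 4.30 CPM in KO (list median 0.18).

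Few of the genes that textbooks give as Polycomb targets were measurable. None of the 35 Hox genes reached 5 CPM in either sample, and Hoxd13, for one, had 1.17 CPM in KO+WT against 0.420 CPM in KO. The 5 Hox genes with a mean of at least 1 CPM went both ways, with log2 ratios from -1.23 to 1.30. Of them, 2 lay above 0 and 3 below (median -0.15). Of 50 further targets, 9 reached 5 CPM, with Wt1 called higher and Meis1, Meis2, Bmi1 and Cdkn2a lower. The median of the 20 with a mean of at least 1 CPM was -0.85, against -0.007 over all genes, -0.006 for the list at 3i and -1.52 at day 2. Of these 20, 14 lay below 0 and 6 above. Across states 9 of 35 fell and 3 rose, against 8.73% and 7.1% of all genes, the risen ones being Wt1, Msx1 and Neurog1.

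Cdkn2a, the locus of the p16 and Arf cell cycle inhibitors, had 8.07 and 8.33 CPM in KO+WT and 17.5 and 17.3 CPM in KO, with 5.88 CPM in KO+N-KR and 12.1 CPM in f/f, and it fell across states (-0.97 ± 0.18, adjusted p = 0.00331). Among 6 CDK inhibitor genes at 5 CPM, Cdkn2a was lower and Cdkn1c higher (list median -0.17).

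Of 24 classically imprinted genes at 5 CPM, 1 was called higher and 2 lower, with a median of 0.13. H19, a maternally expressed non-coding RNA, had 15.9 and 15.8 CPM in KO+WT and 43.4 and 45.4 CPM in KO, with 21.0 CPM in KO+N-KR and 18.9 CPM in f/f. Plagl1, a zinc finger gene, had 4.03 and 4.16 CPM against 9.99 and 10.5 CPM. Cdkn1c, a maternally expressed CDK inhibitor gene, was higher at 26.4 and 23.8 CPM in KO+WT against 9.84 and 13.1 CPM in KO.

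Grb10, an adaptor gene of insulin signalling, lay just under 2-fold, at 185 and 183 CPM in KO+WT and 90.6 and 97.9 CPM in KO. It rose across states (0.99 ± 0.11, adjusted p = 0.000186), while H19 fell (-0.90 ± 0.26, adjusted p = 0.0304) and Cdkn1c did not pass (adjusted p = 0.199). In all, 3 of 30 imprinted genes rose and 4 fell across states.

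Several of the genes with the lowest ratios belong to none of the lists above. Robo4, an endothelial guidance receptor gene, had 2.45 and 2.52 CPM in KO+WT and 13.8 and 12.4 CPM in KO, with 6.17 CPM in KO+N-KR and 8.83 CPM in f/f. H2afy2, for the histone variant macroH2A2, had 6.48 and 6.94 CPM against 22.4 and 22.9 CPM, with 6.89 CPM in KO+N-KR and 18.8 CPM in f/f, so both rescue lines lay low. Ceacam1, a cell adhesion gene, had 3.16 and 4.16 CPM against 11.8 and 12.2 CPM and a log2 ratio of 0.14 at 3i, and it did not pass across states (adjusted p = 0.0689).

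Wfdc2, a secreted protease inhibitor-like gene, had 16.4 and 13.4 CPM in KO+WT and 47.3 and 42.3 CPM in KO, Dcaf12l1 on the X chromosome 4.98 and 6.18 CPM against 16.9 and 16.3 CPM, and Kdelr3, an endoplasmic reticulum retention receptor gene, 3.72 and 4.29 CPM against 11.2 and 11.9 CPM. Robo4, H2afy2, Wfdc2, Dcaf12l1 and Kdelr3 fell across states (adjusted p from 0.000357 to 0.0255). Necab2, a neuronal calcium-binding gene that also fell, lies on chromosome 8.

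**Figure D5:**
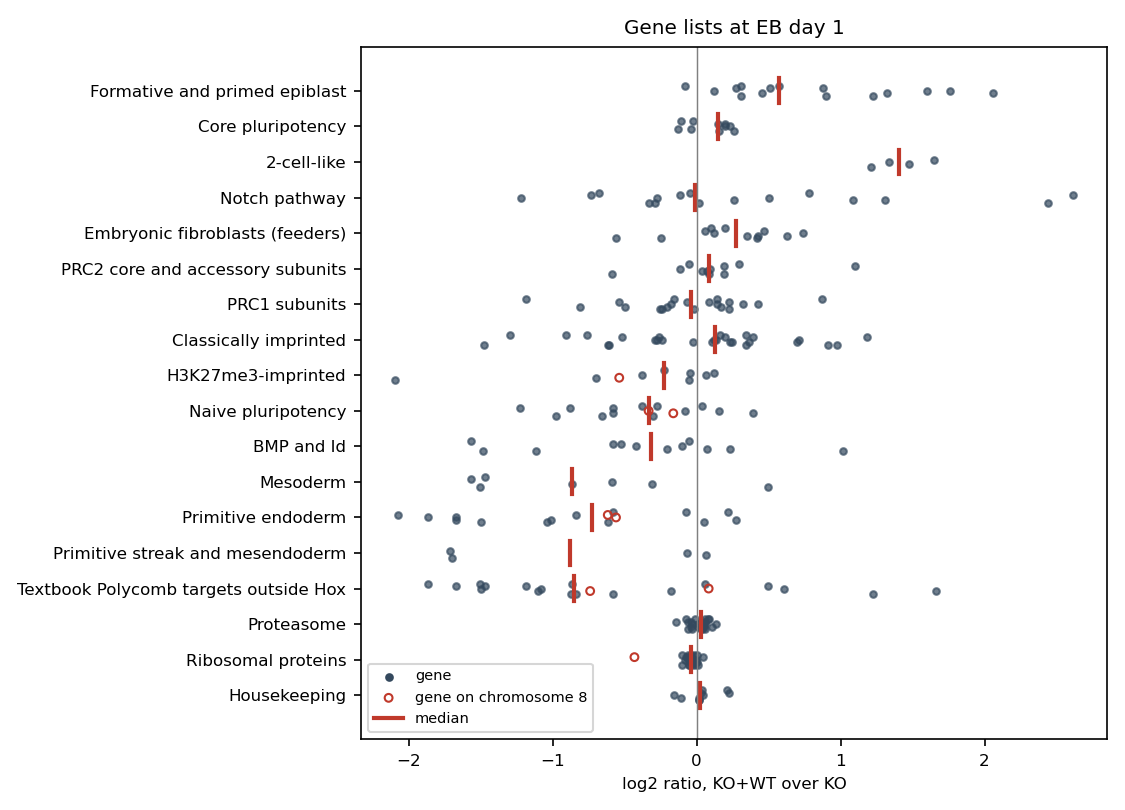
Log2 ratios of KO+WT over KO at embryoid body day 1 for members of 18 gene lists with a mean of at least 1 CPM over the 12 sums (points; open circles lie on chromosome 8), with each list's median as a bar. Formative (0.57) and 2-cell-like (1.41) lists lie right of 0, mesoderm (-0.86), streak (-0.88), primitive endoderm (-0.73) and Polycomb target (-0.85) lists lie left of it, and the proteasome, ribosomal and housekeeping lists lie within 0.04 of it.

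The remaining lists held few calls. Tfap2c, a trophoblast and germ cell factor, was lower at 12.0 and 12.6 CPM in KO+WT against 27.9 and 28.7 CPM in KO and fell across states (-1.09 ± 0.16, adjusted p = 0.000717), the only call among 4 trophoblast genes at 5 CPM (median -0.07). Mael, a germline gene of transposon silencing, was higher at 19.1 and 19.9 CPM against 8.35 and 10.8 CPM, while Ddx4, for the germ cell helicase Vasa, fell (-0.73 ± 0.13, adjusted p = 0.00217) with 27.3 and 25.1 CPM against 44.5 and 45.8 CPM. The germline median was -0.03. Tek, for the angiopoietin receptor, was higher at 15.7 and 16.4 CPM in KO+WT against 5.46 and 7.44 CPM in KO, while Cdh5, the defining endothelial cadherin, had 2 counts in KO+WT and 3 in KO.

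Lef1 and Gadd45g were the only calls among 5 WNT feedback genes (median -0.21) and 13 hypoxia and stress genes (median -0.20) at 5 CPM. No gene was called among 12 FGF-ERK feedback genes (median -0.16), 5 YAP-responsive genes (0.24), 13 p53 targets (-0.06), 16 cholesterol synthesis genes (-0.002), 3 neuroectoderm genes (-0.18) and 2 neuronal genes (0.01, and -0.55 without replicate 1) at 5 CPM. Tubb3, one of the neuronal genes, had 22.6 and 25.4 CPM in KO+WT against 45.9 and 45.1 CPM in KO and lies on chromosome 8. None of 25 proteasome genes (median 0.03), 26 ribosomal protein genes (-0.04) or 10 housekeeping genes (0.02) was called. Of the ribosomal genes, Rpl13 stood apart at 1001 and 1004 CPM in KO+WT against 1354 and 1350 CPM in KO, and it too lies on chromosome 8.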

How the data were processed

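Poly(A) RNA-seq counts were read from the table that the authors deposited: raw counts per gene symbol in 30 columns, of which 24 match the labels' library names and the other 6 were not used. Per the submitters' processing notes, the tools were STAR 2.5.2b and DESeq2, on mm9. How reads were counted, with or without strand, is not given in the sources used here, and reads of overlapping or antisense genes may be mixed. Library totals ran from 7553683 to 14426034. Chromosomes came from a RefSeq table of another build by symbol (20683 matched) or unique synonym (2355), for order only; 246 symbols had none. Promoter windows came from RefSeq (GRCm38.p6) by symbol for 15701 symbols.

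The 2 libraries of each group were summed and scaled by TMM; ratios used a prior count of 2. The fits used edgeR 4.0.16 (quasi-likelihood F-test, filterByExpr, Benjamini-Hochberg) in R 4.3.3, with DESeq2 1.42.0 as an alternative, and were tested on simulated counts. The additive fit over the 12 sums had 6 residual degrees of freedom and a coefficient of variation of 7.97%. Its p-values concern the mean difference over states between single lines, and SEs come from the fold change and F. The fit over 24 libraries had 12 and 0.988%. Replicates are not stated to be independent cultures, so p-values are taken to measure only the spread between these samples.

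Named were Eed, Skp1a, the 14 highest and 14 lowest log2 ratios among genes called with at least 10 CPM and in both replicate numbers alone (at most 2 Xlr genes), each list member called, and up to 4 further members per list. Members, the 34 lists and this rule were chosen with earlier results of these data known; genes printed outside it (such as Sox2, Otx2 and Hoxd13) were chosen after their values were seen. A few genes that the rule would name are not reported here.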

Additional observations from a re-analysis of the deposited data

Results flagged for a closer look

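For 7 of the named genes the log2 ratio of KO+WT over KO pointed one way at day 1 and the other way in another state, with both counting intervals clear of 0. The difference between the states was not shown by a test: with 1 sample per line and state, the interaction term of the 12-sum fit gave an adjusted p of 0.999966 for each. At day 2 the ratio was -0.173572 for Gm4340, -0.338276 for Zscan4c, -0.3356 for Zscan4d and -0.353084 for Zscan4f, against 1.65, 1.21, 1.47 and 1.34 at day 1, all genes of the 2-cell-like state. Cdkn1c stood at -0.155359 at day 2, against 1.18 at day 1. At 3i the ratio was 0.155295 for Prdm14 and 0.135768 for H19, against -1.23 and -1.48 at day 1.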

How the results depend on the processing

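Of the day 1 size calls (70 higher and 109 lower in KO+WT), a minimum of 10 CPM left 48 and 71, a minimum of 2 CPM gave 125 and 189, and no minimum 781 and 736. A 1.5-fold line gave 240 and 519, and a 3-fold line 20 and 22. Library totals alone gave 66 and 115 and DESeq2's size factors 79 and 101. Leaving out replicates gave 70 to 88 higher and 117 to 141 lower calls. In the fit over 24 libraries, DESeq2 called 1695 higher and 1601 lower, against 2402 and 2625 in edgeR, and leaving out replicates gave 1670 to 2015 and 1814 to 2268. With the replicate number as a block the counts were 2434 and 2654. The deviations of same-numbered libraries of KO+WT and KO correlated at 0.02. Each replicate number has its own prefix in the library names, the same in every group. Deviations this near sampling noise cannot show whether the numbers pair the samples. Across states, 1081 genes rose and 1329 fell, and without day 1 these were 74 and 151. Without day 2 the counts were 554 and 709, and without 3i 1185 and 1667 (both settings chosen after seeing the data). Leaving out a replicate number gave 767 to 888 and 979 to 1167. The interaction term gave 0 calls under each setting run. Alternatives without chromosome 8 or the X cluster were chosen after seeing the data; across states, 887 genes fell without chromosome 8. Of 810 values for 162 named genes under 5 settings, 809 stayed within their error and 1 moved, Trim28 with DESeq2's size factors (0.25 against 0.23). That error is the counting interval or most of the difference between the replicate numbers. The settings that drop a replicate number therefore pass nearly by construction. Of 170 list medians under the same settings, 142 moved by no more than the spread between replicate numbers and 28 by more. Depth limits genes under 5 CPM, about 103 counts in KO+WT and 107 in KO. Why counts moved was not tested beyond what each setting changes by construction.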
